A study of Mus musculus with 16 samples.

Results

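The 4 libraries described were made from control mouse embryos at the 8-cell stage, and they are 4 of the 16 libraries of a study with 4 groups. They were chosen by their label alone: the embryos had received, as zygotes, double-stranded RNA against GFP, a jellyfish fluorescent protein with no gene in the mouse genome. The other groups of the study received double-stranded RNA against Tfap2c, Tead4 or both, and none of their values enters the results below. Each library was made from a pool of 10 embryos, about 80 cells, whose zona pellucida had been removed with acidic Tyrode's solution, and culture was in KSOM medium. Libraries A1 and A2 came from mothers of the cross C57BL/6J × CBA/J (cross A), and libraries B1 and B2 from mothers of the cross C57BL/6J × DBA/2J (cross B). The sire is labelled C57BL/6J × DBA with a substrain number that differs from library to library, so no sire strain is given here. All 4 control pools carry the injection and the removal of the zona, and an embryo without an injection was not analysed here. Embryos in a pool share 1 library, and the labels do not say that the pools were separate cultures or collections, so the spread reported is that between pools and may be partly technical.

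The 8-cell embryo is the stage at which the mouse embryo compacts: its cells flatten against each other and acquire an apical and a basal side before the first split into trophectoderm, the future placental lineage, and inner cell mass. By then most RNA inherited from the oocyte has been degraded, and the genome of the embryo, switched on at the 2-cell stage, supplies the transcripts. Polyadenylated RNA was copied and amplified by the Smart-seq2 procedure. The level of a gene is given in FPKM, fragments counted on a gene, divided by the length of its transcript and by the mapped fragments of the library, so that levels of different genes can be compared per length.

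The table held 43437 genes. Their FPKM summed to 867304 in A1, 806229 in A2, 859499 in B1 and 848580 in B2. At least 1 FPKM was reached by 10079 genes in A1, 10075 in A2, 10504 in B1 and 10049 in B2, and by 8968 genes in all 4 libraries. Those 8968 genes, called detected below, were 20.6% of the table and held between 89.2% and 94.0% of the FPKM of a library. Their median level was 11.6 FPKM, with quartiles of 4.13 and 42.1 FPKM. At the other end, 21419 genes were listed at 0 in all 4 libraries. A mean of 10 FPKM or more was reached by 4839 genes, of 100 or more by 1270 and of 1000 or more by 156. Among detected genes, 7815 of 20841 annotated as protein coding, 523 of 4729 pseudogenes and 47 of 534 long intergenic noncoding RNAs were counted.

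The distribution was steep and much alike in the 4 pools. The most abundant 157 genes of A1, 169 of A2, 169 of B1 and 184 of B2 together held 50% of the library's FPKM. Ranked by the mean over the 4 libraries, the 10 highest genes held 12.8% of the FPKM in A1, 14.0% in A2, 14.7% in B1 and 11.2% in B2, and the 100 highest held 41.0%, 39.0%, 39.1% and 36.3% in the same order. In all, 72 of these 100 genes were also among the 100 highest of every single library. The plot of level against rank shows the 4 curves on top of each other over most of their length.

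**Figure D1:**
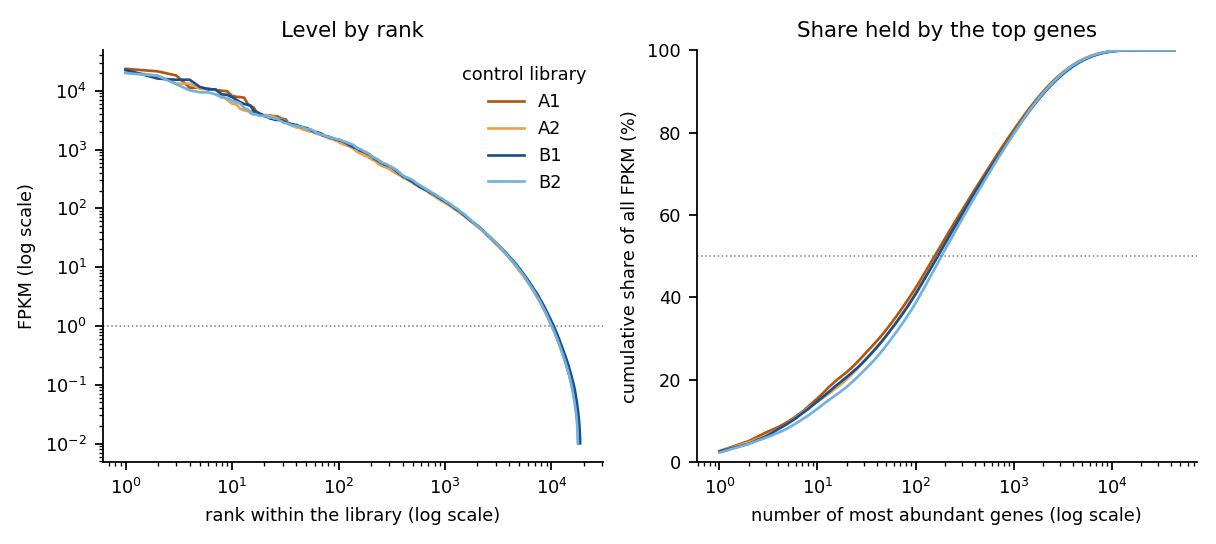
FPKM against rank within each control library (left, both axes logarithmic, dotted line at 1 FPKM) and cumulative share of all FPKM in percent against the number of most abundant genes (right, logarithmic horizontal axis, dotted line at 50%), with 1 line per library for A1, A2, B1 and B2. The curves cross 50% between 157 and 184 genes.

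Transcripts of the mitochondrial genome headed the ranking. Most of them are polyadenylated and so are captured with messenger RNA. All 13 mitochondrially encoded protein genes were detected, with means from 770 FPKM for mt-Nd6 to 16919 FPKM for mt-Cytb, which encodes cytochrome b of complex III and had the highest mean of all genes. mt-Cytb stood at 18128 FPKM in A1, 21269 in A2, 15378 in B1 and 12902 in B2. mt-Atp8, a short ATP synthase subunit gene of 204 bases, reached 8164 FPKM in A1, 17982 in A2, 15357 in B1 and 17980 in B2, so that A1 stood below the other libraries. mt-Rnr2, the large ribosomal RNA of the mitochondrion, was steadier at 10299, 10759, 11565 and 10164 FPKM across A1, A2, B1 and B2 (10697 ± 632, SD, n = 4). Mitochondrially encoded genes together held 9.30% of the FPKM in A1, 12.1% in A2, 9.43% in B1 and 8.95% in B2. The nuclear genes of the respiratory chain lay lower: 82 of 85 were detected, with a median of 143 FPKM, and Atp5g1, a ring subunit of ATP synthase, was the highest at 1408 ± 144 FPKM (SD, n = 4). Of the members not detected, Cox8b was listed at 0 in all libraries and Cox6a2 averaged 0.0377 FPKM; both encode subunits of cytochrome c oxidase that are typical of muscle. All 77 mitochondrial ribosomal protein genes were detected, with a median of 83.4 FPKM and Mrpl22 highest at 690 ± 52.8 FPKM.

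The highest nuclear gene that is not a copy or a predicted gene was Dppa3, at 7780 FPKM in A1, 8095 in A2, 8520 in B1 and 8679 in B2 (8269 ± 409, SD, n = 4). Dppa3 (ENSMUSG00000046323, chromosome 6, 122626424 to 122630271 of GRCm38) encodes Stella, a factor inherited from the oocyte that protects the maternal genome of the zygote from loss of methylation. The 4 pools differed little. Both B values lay above both A values, as they did for 31.4% of the 10468 genes tested between crosses. Dppa5a, a KH-domain protein of pluripotent cells, stood at 5428, 4869, 5747 and 6731 FPKM across A1, A2, B1 and B2. Crxos, a homeobox gene transcribed in early embryos and embryonic stem cells, stood at 6012, 4672, 5561 and 5998 FPKM in the same libraries and was the highest of the 91 transcription factor genes looked up.

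Further named nuclear genes stood among the 30 highest means. Rpl41, a protein of the cytosolic ribosome, averaged 7287 ± 972 FPKM. Hspa8, the constitutive HSP70 chaperone, averaged 3933 ± 716 FPKM and Hsp90aa1, an HSP90 chaperone, 3270 ± 563 FPKM. Npm1, the nucleolar chaperone nucleophosmin, averaged 3602 ± 228 FPKM, Ppia, the prolyl isomerase cyclophilin A, 3315 ± 146 FPKM, and Tceb1, elongin C, 3611 ± 323 FPKM. Set, a histone chaperone and inhibitor of a phosphatase, averaged 3146 ± 448 FPKM, and Sat1, which acetylates spermidine and spermine, 3211 ± 405 FPKM (SD, n = 4 throughout). The list closed with 2 membrane protein genes. Tmem41b, a lipid scramblase of the endoplasmic reticulum, reached 3855, 4491, 3330 and 3936 FPKM across A1, A2, B1 and B2. Timd2, a cell surface receptor of the TIM family, reached 3638, 3314, 2357 and 3052 FPKM in the same libraries.

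**Figure D2:**
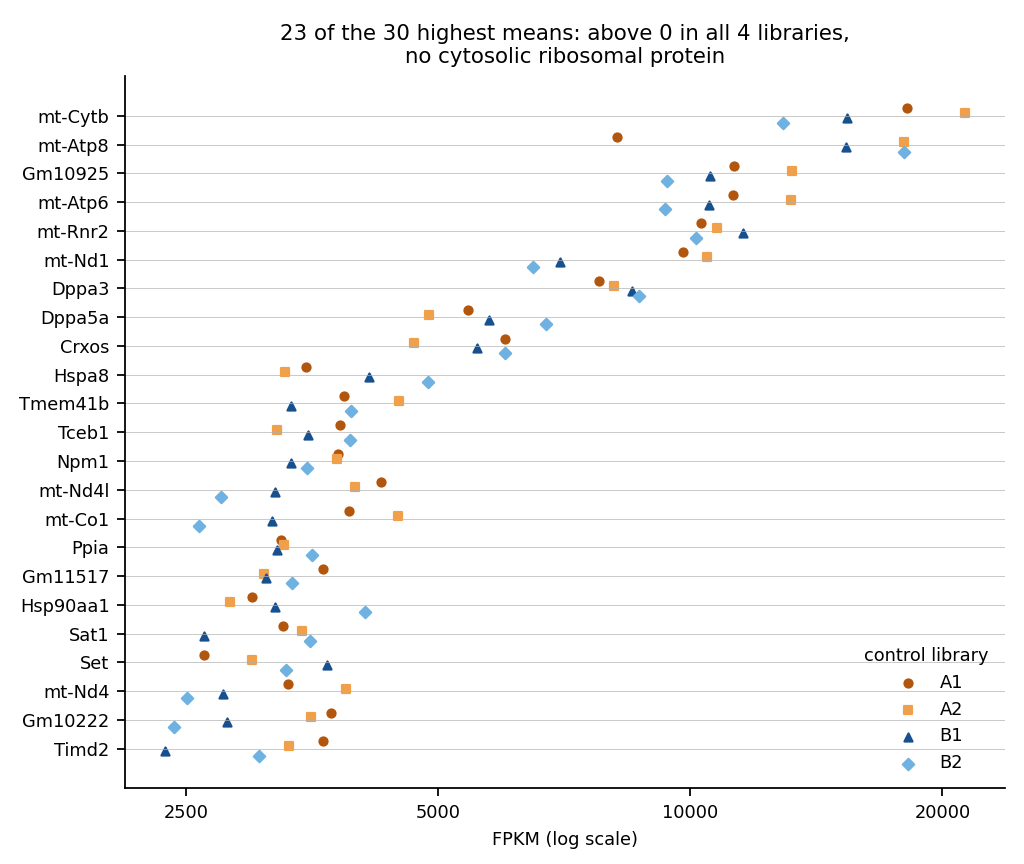
FPKM of single control libraries (logarithmic horizontal axis, 1 symbol per library, A1 to B2 from top to bottom within a gene) for those of the 30 highest mean genes that were above 0 in all 4 libraries and encode no cytosolic ribosomal protein, 23 genes from the highest mean at the top. Dppa3 and Ppia lie close together across libraries, while mt-Atp8 has A1 at 8164 FPKM below the other libraries.

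Of the 30 highest means, 8 belonged to predicted genes or pseudogenes, and of the 100 highest, 23. Several of them moved in step with a mitochondrial gene. Gm10925 (chromosome 1, 24613971 to 24614651) had 11272, 13218, 10562 and 9372 FPKM across A1, A2, B1 and B2, which is 1.003, 1.003, 1.003 and 1.004 times the FPKM of mt-Atp6 in the same libraries. Gm10222 had 0.872, 0.884, 0.878 and 0.879 times the FPKM of mt-Nd4l in A1, A2, B1 and B2, and its annotated sequence matched mt-Nd4l at 100% over 297 bases. In all, 4 predicted genes among the 100 highest means had a ratio to a mitochondrial gene whose coefficient of variation was under 1%, and they held 2.27%, 2.63%, 2.03% and 1.85% of the FPKM across A1, A2, B1 and B2. Of the 23 predicted genes, 11 had an annotated sequence, and 7 of those matched a coding transcript at 90% identity or more over at least 90% of their length. Among these matches, Gm22181, Gm23638, Gm25535 and Gm22750 were entries of 103 to 126 bases. Each was listed at 0 in at least 1 library, and the genes they matched averaged only 8.08, 1.41, 0.575 and 69.1 FPKM in this order. How the authors' counting shared reads between such copies is not given in the sources used here, so the levels of these genes and of their partners are uncertain.

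A second set of predicted genes reached a high mean through few libraries. Gm25819, a small nuclear RNA gene of 84 bases, had 21342 FPKM in A1 and was listed at 0 in A2, B1 and B2. Gm26376 was listed at 0 in A1 and B2 and had 7022 FPKM in A2 and 22625 FPKM in B1. Gm14039, a pseudogene of 101 bases, had 10852 FPKM in A1, 0 in A2, 16079 in B1 and 19916 in B2. Altogether 38 genes with a mean of 100 FPKM or more were listed at 0 in at least 1 library. Of these, 21 had a longest transcript under 300 bases, 17 had no annotated length, and 0 had a transcript of 300 bases or more. Within a library, several such genes shared a common unit: in B2, Gm22181 stood at 1 unit of 1878 FPKM, Gm23638 at 2 units and Gm26269 at 4 units, within 0.1%. The levels of these short genes thus came in large steps, and their means over 4 libraries describe no typical pool. Genes of any level listed at 0 in another library held 10.4%, 6.31%, 10.2% and 5.62% of the FPKM of A1, A2, B1 and B2.

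Proteins of the cytosolic ribosome were the largest class of nuclear genes among the most abundant, with 32 of the 100 highest means. Of the 90 genes in the class, 88 were detected and 85 reached 100 FPKM in all 4 libraries. The 90 include paralogs and copies, among them Rps3a3. The median was 1191 FPKM, and the class held 13.6% of the FPKM in A1, 12.5% in A2, 13.6% in B1 and 14.6% in B2. Rps24, a protein of the small subunit, was among the steadiest at 2664, 2444, 2481 and 2564 FPKM across A1, A2, B1 and B2 (2538 ± 97.5, SD, n = 4). Rps27 averaged 2489 ± 307 FPKM and Rps29 2384 ± 281 FPKM. At the low end, Rpl3l, a paralog typical of muscle, averaged 0.753 FPKM and Rps12l2 0.135 FPKM. Among translation factors, 58 of 68 were detected, led by Eif5a at 1621 ± 160 FPKM and Eef1a1, the main elongation factor, at 1414 ± 77.9 FPKM, while Eef1a2, its muscle and neuron form, was listed at 0 in all 4.

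Promoters of abundant genes were read from RefSeq on GRCm38.p6, from 250 bases before to 50 bases after each annotated start. They are shown because the detected genes differed from the genes listed at 0 in what these windows held. For 9 abundant genes the window from 80 bases before to 20 bases after a start reads as follows, 5′ to 3′ on the strand of the gene. Capitals mark the hexamer GGGCGG, the sequence TATAAA or the pentamer CCAAT, each searched on both strands, or a run that begins within 10 bases of the start with C and goes on with at least 5 pyrimidines.
Rps24 (chr14:24490598-24490697, plus strand): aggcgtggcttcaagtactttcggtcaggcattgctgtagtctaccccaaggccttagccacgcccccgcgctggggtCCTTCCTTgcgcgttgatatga
Rps27 (chr3:90213629-90213728, minus strand): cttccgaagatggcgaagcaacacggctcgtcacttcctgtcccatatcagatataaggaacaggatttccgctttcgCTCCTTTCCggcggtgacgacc
Rpl41 (chr10:128549149-128549248, minus strand): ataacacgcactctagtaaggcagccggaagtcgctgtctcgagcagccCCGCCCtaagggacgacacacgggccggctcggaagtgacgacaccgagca
Ppia (chr11:6415787-6415886, plus strand): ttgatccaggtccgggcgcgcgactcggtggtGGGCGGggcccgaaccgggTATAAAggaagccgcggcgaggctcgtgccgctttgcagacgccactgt
Hprt (chrX:52987998-52988097, plus strand): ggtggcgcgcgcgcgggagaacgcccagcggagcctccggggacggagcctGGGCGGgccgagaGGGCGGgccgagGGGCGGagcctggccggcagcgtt
Tmem41b (chr7:109986211-109986310, minus strand): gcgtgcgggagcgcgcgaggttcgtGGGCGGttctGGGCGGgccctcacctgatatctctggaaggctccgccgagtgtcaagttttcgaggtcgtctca
Set (chr2:30061916-30062015, plus strand): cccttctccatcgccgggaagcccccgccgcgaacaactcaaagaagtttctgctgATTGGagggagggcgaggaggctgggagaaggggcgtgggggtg
Ccnb1 (chr13:100786467-100786566, minus strand): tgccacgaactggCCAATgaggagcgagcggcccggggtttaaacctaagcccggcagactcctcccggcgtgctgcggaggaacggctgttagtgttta
Crxos (chr7:15882537-15882636, plus strand): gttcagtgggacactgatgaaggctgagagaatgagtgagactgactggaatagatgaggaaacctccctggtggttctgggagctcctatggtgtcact

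The hexamer GGGCGG, searched on both strands, was in 62.7% of the 8160 promoters of detected genes, in 17.2% of the 6042 promoters of genes listed at 0 in all 4 libraries and in 35.7% of all 32851 promoters in the RefSeq table. A gene can have several promoters or none there. The promoters covered 6507 of the 8968 detected genes and 5353 of the 21419 genes at 0, and Dppa3 and Dppa5a had none. TATAAA ran the other way, with 7.17% of promoters of detected genes, 22.1% of those of genes at 0 and 13.6% of all. CCAAT differed little, at 38.6%, 37.2% and 37.4%. The median number of CG dinucleotides in a promoter was 21 for detected genes, 3 for genes at 0 and 7 for all promoters. GGGCGG itself holds a CG, so these counts overlap. Among promoters of cytosolic ribosomal protein genes, 47.4% of 76 had the pyrimidine run at the start, against 19.2% of all promoters. These 76 belonged to 64 of the 90 genes of that class. Rps24 and Rps27 above have such a run of 8 and 9 bases, and Hprt, an enzyme of purine salvage at 2533 ± 384 FPKM, holds GGGCGG 3 times in its window. The Crxos window holds none of these motifs. The share changed little with level: GGGCGG was in 60% of promoters of genes with a mean of 1000 FPKM or more and in 61.9% of those at 100 FPKM or more. These are counts of letters, and nothing was measured of the factors that bind them.

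Housekeeping complexes lay in a clear order of level, shown in the plot of gene lists. Among proteasome subunits, which degrade tagged proteins, 44 of 48 were detected with a median of 289 FPKM and Psma6 highest at 988 ± 50.3 FPKM. The 3 members under 1 FPKM in all libraries were Psmb8, listed at 0, and Psmb9, at 0.345 FPKM, both subunits of the immunoproteasome, and Psmb11, the thymus subunit, at 0.151 FPKM. Psma8, the testis subunit, averaged 0.812 FPKM. Splicing factors were detected for 59 of 62, with a median of 54.4 FPKM and Snrpe, a core protein of the spliceosome, highest at 808 ± 96.6 FPKM. Aminoacyl-tRNA synthetases were detected for 31 of 35 with a median of 15.2 FPKM. Of 85 chaperones, 58 were detected, and 24 stayed under 1 FPKM in all 4 libraries. Lysosomal and endocytic genes were detected for 27 of 29, led by Cd63, a tetraspanin of late endosomes, at 2630 ± 204 FPKM.

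**Figure D3:**
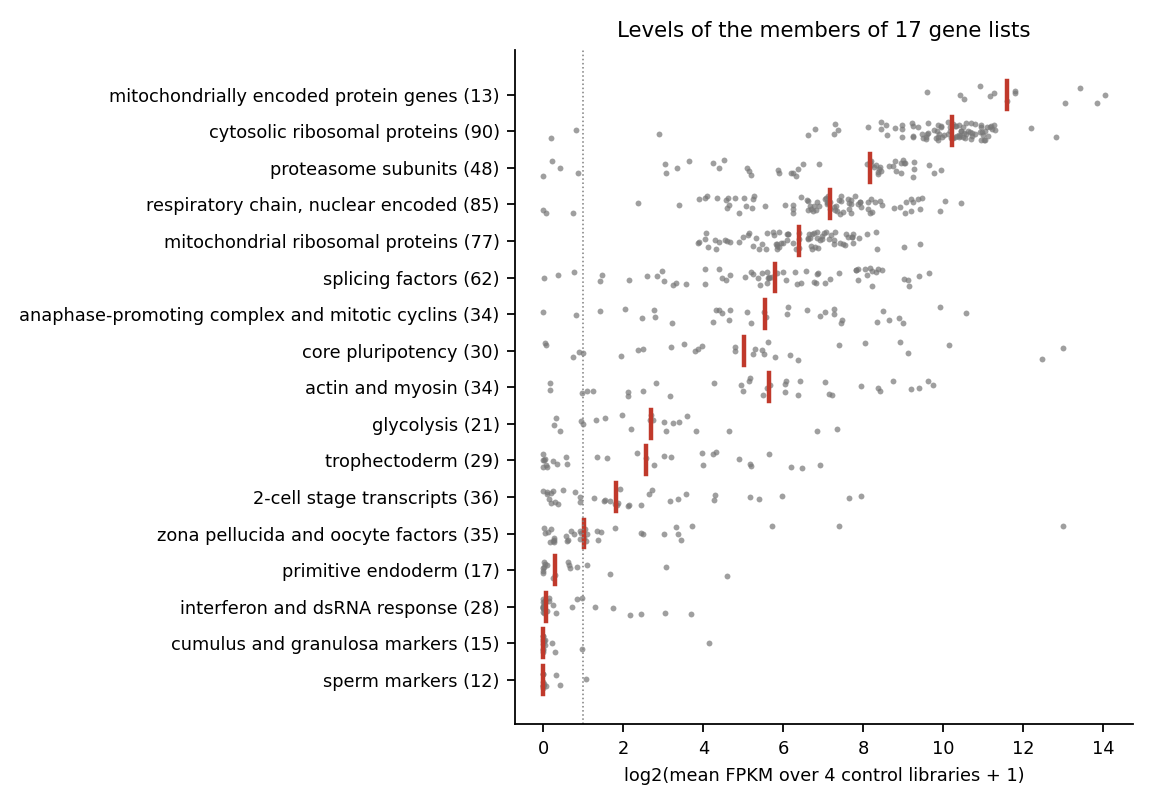
Mean level over the 4 control libraries, as log2(FPKM + 1) on the horizontal axis, of the members of 17 gene lists (1 grey point per gene, red bar at the list's median, number of members in brackets, dotted line at 1 FPKM). Mitochondrially encoded and ribosomal protein genes lie highest, and the medians of the cumulus and sperm lists lie at 0.

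Cell cycle lists differed in level. Of 34 genes of the anaphase-promoting complex and the mitotic cyclins, 32 were detected, with a median of 45.8 FPKM. Ccnb1, cyclin B1, reached 1560 FPKM in A1, 1747 in A2, 1421 in B1 and 1376 in B2. Both A values lay above both B values, as for 23.4% of the 10468 genes tested between crosses. Ube2c, the ubiquitin-conjugating enzyme of the complex, averaged 967 FPKM, Cdk1, the mitotic kinase, 508 FPKM, and Cdc20, an activator of the complex, 475 FPKM. Ccna1, the germline cyclin A, was listed at 0 in all 4. Of 55 kinesins and centromere proteins, which move and attach chromosomes, 34 were detected with a median of 5.14 FPKM, and Cenpa, the histone H3 of the centromere, was highest at 214 ± 17.7 FPKM (SD, n = 4). Of 21 G1 cyclins, kinases and inhibitors, 12 were detected with a median of 5.27 FPKM. Cdk4 averaged 206 FPKM and Ccne1, cyclin E1, 97.3 FPKM, while Ccnd1, cyclin D1, averaged 3.18 FPKM, Ccnd2 0.222 FPKM and Rb1, the retinoblastoma protein, 1.11 FPKM. Cdkn1a, the p21 inhibitor, varied more than most, at 56.2 and 87.8 FPKM in A1 and A2, and 197 and 147 FPKM in B1 and B2.

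Of 16 replacement and linker histone genes, 9 were detected and 4 were listed at 0 in all 4 libraries, with a median of 5.34 FPKM. H3f3b, which encodes histone H3.3, averaged 1808 ± 122 FPKM, H2afz 1731 ± 244.5 FPKM and H3f3a 1485 ± 120 FPKM. Of 69 replication-dependent core histone genes, whose transcripts mostly lack a poly(A) tail, 25 were detected, and the median was 1.09 FPKM. Of these 69 genes, 13 reached 10 FPKM and 3 reached 100 FPKM in all 4 libraries. Hist1h2ap was the highest with 1079, 666, 1375 and 1559 FPKM across A1, A2, B1 and B2. The core histone genes are near-identical copies, so the split between them is uncertain. In DNA methylation, Dnmt3l, the cofactor of the de novo enzymes, averaged 40.2 FPKM, Dnmt3a 11.6 FPKM and Dnmt3b 4.94 FPKM, while the maintenance enzyme Dnmt1 averaged 1.22 FPKM and its partner Uhrf1 1.16 FPKM. Tet1, which oxidises methylcytosine, averaged 7.79 FPKM, against 0.495 FPKM for Tet3, its form in the oocyte. Of 28 Polycomb genes, 20 were detected, with Eed at 113 FPKM, Suz12 at 57.1 FPKM and Ezh2 at 54.7 FPKM, the 3 core members of the complex that methylates histone H3.

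Genes of pluripotency were present at very unequal levels. Of 30 such genes, 25 were detected, with a median of 32.0 FPKM. Besides Dppa3 and Dppa5a, the highest were Dppa2 at 1126 FPKM and Dppa4 at 486 FPKM, a pair of chromatin proteins of early embryos, Sox15 at 557 FPKM and Sall4, a zinc finger factor, at 266 FPKM. Pou5f1, the factor OCT4, stood at 40.5 FPKM in A1, 30.02 in A2, 38.9 in B1 and 39.2 in B2, and A2 was the lowest. Nanog stood at 26.7, 27.7, 25.2 and 27.9 FPKM across A1, A2, B1 and B2, so that its libraries hardly differed. Sox2, the partner of OCT4 in the blastocyst, stood at 0.0285, 0.0291, 0.132 and 0 FPKM across A1, A2, B1 and B2, and Nr0b1 averaged 0.0302 FPKM. Of the Krüppel-like factors, Klf17 averaged 54.55 FPKM, Klf5 43.1 FPKM, Klf2 14.54 FPKM and Klf4 10.5 FPKM.

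The 20 most abundant of the transcription factor genes also included several that are little known outside the early embryo. After Crxos came Obox6, an oocyte-type homeobox gene, at 1487, 1485, 960 and 1000 FPKM across A1, A2, B1 and B2, while the other 4 Obox genes averaged between 0.682 FPKM for Obox2 and 1.63 FPKM for Obox5. Hmgb1, an abundant DNA-bending protein, averaged 1089 FPKM and Id3, an inhibitor of helix-loop-helix factors, 259 FPKM. Nr5a2, a nuclear receptor of the cleavage embryo, averaged 44.9 FPKM, Myc 49.3 FPKM and Zfp42, the marker REX1, 48.0 FPKM. Of the NF-Y subunits that bind CCAAT, Nfyc averaged 154 FPKM and Nfyb 46.8 FPKM, against 4.47 FPKM for Nfya. The immediate early factors were low, with Jun at 0.3125 FPKM, Junb at 0.171 FPKM and Fos at 0.240 FPKM. Of the Pramel and Pramef family, 7 of 12 were detected, with Pramel7 at 658 FPKM and Pramel6 at 584 FPKM; both are known to support the ground state of mouse embryonic stem cells.

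Early lineage genes were mixed, with some members at sizeable levels and others at or near 0. Of 29 trophectoderm genes, 16 were detected, with a median of 4.90 FPKM. Aqp9, a channel for water and glycerol, averaged 121 FPKM, Cldn7, a tight junction claudin, 86.95 FPKM and Dab2, an endocytic adaptor, 72.9 FPKM. Tead4, the factor required for trophectoderm, stood at 58.4, 46.5, 47.7 and 41.8 FPKM, and Tfap2c, the AP-2 factor of the same lineage, at 43.2, 38.8, 28.3 and 32.5 FPKM across A1, A2, B1 and B2. These are the levels of both study targets in embryos that were not targeted. No other AP-2 gene was detected: Tfap2a and Tfap2d were listed at 0, Tfap2b averaged 0.177 FPKM and Tfap2e 0.235 FPKM. Tead1 averaged 2.95 FPKM, Tead2 1.065 FPKM and Tead3 0.0445 FPKM. Cdx2, the trophectoderm homeobox gene, stood at 0.0626, 0.0956, 0.202 and 0.341 FPKM across A1, A2, B1 and B2, and Gata3 at 3.13, 2.28, 7.18 and 7.02 FPKM. Elf5, Tfap2a and Aqp8 were listed at 0 in all 4. In pools of whole embryos, fewer cells with a transcript and less of it per cell cannot be told apart.

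Of 17 primitive endoderm genes, 3 were detected. Gata6 stood at 18.2, 23.8, 23.7 and 27.3 FPKM and Gata4 at 11.04, 8.67, 5.76 and 4.14 FPKM across A1, A2, B1 and B2, while the later genes Sox17, Foxa2 and Sox7 were listed at 0. In the FGF pathway, which guides the choice between inner cell mass lineages, Fgfr2 averaged 28.95 FPKM and its inhibitor Spry2 91.3 FPKM, against 2.86 FPKM for the ligand Fgf4 and 3.50 FPKM for Fgfr1. Of 35 genes of Nodal, BMP and Wnt signalling, 11 were detected; Tdgf1, the Nodal coreceptor, averaged 81.5 FPKM while Nodal itself averaged 0.00868 FPKM. In the Hippo pathway, whose kinases hold the TEAD coactivators out of the nucleus, the kinase Stk4 averaged 33.7 FPKM, Lats2 4.40 FPKM and Lats1 1.48 FPKM. The coactivators Wwtr1 and Yap1 averaged 14.95 and 4.59 FPKM.

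Genes of the machinery of compaction and polarity were led by general cytoskeletal proteins. Of 34 actin and myosin genes, 28 were detected. Cfl1, which severs actin filaments, averaged 862 FPKM, Pfn1, which supplies actin monomers, 791.5 FPKM, and Actb 678 FPKM, with 552 and 523 FPKM in A1 and A2, and 755 and 883 FPKM in B1 and B2. Of 25 junction genes, 20 were detected: Cdh1, the cadherin of compaction, stood at 15.8, 16.6, 19.01 and 18.5 FPKM across A1, A2, B1 and B2, and Ctnnb1, its cytoplasmic partner, averaged 17.2 FPKM. F11r, a junctional adhesion molecule, was the highest at 111 FPKM. Of 23 polarity genes, 16 were detected, with Cdc42 at 259 FPKM, Crb3, an apical Crumbs protein, at 168 FPKM and Rhoa at 167 FPKM. The Par complex members were lower, with Pard6b at 4.30 FPKM, Pard3 at 5.10 FPKM and the kinase Prkci at 2.57 FPKM. Of 13 genes of the apical cortex and microvilli, 3 were detected. The highest was Rdx, radixin, at 12.3 FPKM, against 2.86 FPKM for Ezr, ezrin.

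Some genes known for earlier stages were detected, and whether their RNA was inherited or newly made was not measured. Of 35 oocyte genes, 12 were detected, and apart from Dppa3 the highest were Trim28, which the embryo also uses, at 167 FPKM and Omt2b at 74.2, 49.2, 53.2 and 30.7 FPKM across A1, A2, B1 and B2. Zp3, a zona pellucida protein, averaged 9.33 FPKM, against 0.898 FPKM for Zp2 and 0.615 FPKM for Zp1. Btg4, an adaptor of maternal RNA decay, stood at 6.79 and 7.61 FPKM in A1 and A2, and 2.94 and 1.29 FPKM in B1 and B2. Mos, the kinase that arrests the oocyte, averaged 0.205 FPKM and Zar1 0.0298 FPKM. Of the subcortical maternal complex, Khdc3 averaged 45.3 FPKM and Padi6 18.1 FPKM, while Ooep averaged 0.753 FPKM. Of 36 genes of the 2-cell stage, 15 were detected, led by Sp110 at 244 FPKM and Eif1a at 201 FPKM. None of the 5 Zscan4 genes reached 1 FPKM in all 4 libraries; Zscan4f stood at 0.385 FPKM in A1, 1.72 in A2, 1.03 in B1 and 5.50 in B2. Many 2-cell genes belong to families of near-identical copies, so their single values are uncertain.

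Carbohydrate and sterol metabolism lay well below protein synthesis. Of 21 glycolysis genes, 14 were detected, with a median of 5.42 FPKM. Pgam1 averaged 162 FPKM and Aldoa 113 FPKM, whereas Gapdh, often used as a reference, stood at 15.1 and 9.07 FPKM in A1 and A2, and 13.6 and 6.76 FPKM in B1 and B2, and Pkm averaged 5.37 FPKM. Of 22 sterol genes, 17 were detected, with Fdft1, squalene synthase, highest at 153 FPKM. Genes of redox defence were higher: 25 of 30 were detected, with Sod1 at 562 FPKM, Gpx1 at 439 FPKM and Gpx4 at 410 FPKM. Of 17 genes of the integrated stress response, 11 were detected, and the highest were Psat1 at 504 FPKM and Phgdh at 221 FPKM, both enzymes of serine synthesis. Of 28 interferon and dsRNA response genes, 21 stayed under 1 FPKM in all 4 libraries, a share close to that of the whole table, where 31883 of 43437 genes did. The whole table also holds pseudogenes and small RNAs. Of the 28 genes 5 were detected, against 7815 of 20841 annotated as protein coding. Ifit1, Isg15 and Ifnb1 were listed at 0, and Eif2ak2, the kinase PKR, averaged 0.0345 FPKM. Oasl2 was the highest of the list at 16.98, 12.5, 11.7 and 6.80 FPKM across A1, A2, B1 and B2. Without uninjected embryos, what the injection itself changes cannot be told apart from the baseline. In RNA interference, Tarbp2 averaged 46.4 FPKM, Ago2 12.5 FPKM and Dicer1 3.19 FPKM.

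Xist and Y-linked transcripts were both present in every pool. Xist, the RNA that silences 1 X chromosome, stood at 8.58, 4.98, 2.18 and 5.51 FPKM across A1, A2, B1 and B2, and the Y-linked Eif2s3y at 17.5, 32.3, 18.6 and 18.4 FPKM. The median of 329 detected X-linked genes was 0.921, 0.894, 0.844 and 0.844 times that of 8341 autosomal genes in A1, A2, B1 and B2. Of 33 imprinted genes, 12 were detected, with Snrpn at 167 FPKM and Impact at 23.8 FPKM, and H19 and Dlk1 were listed at 0.

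Markers of other cells that could adhere to the embryos were at or near 0 with few exceptions. Of 15 cumulus and granulosa markers, Amhr2 alone was detected, at 18.5, 14.8, 21.9 and 11 FPKM across A1, A2, B1 and B2, and 8 markers, among them Fshr, Lhcgr and Ptx3, were listed at 0. Of 11 blood markers, Hba-a1 averaged 12.4 FPKM, Hba-a2 7.71 FPKM and Cd68 5.24 FPKM, while Hbb-bs, Hbb-bt and Ptprc were listed at 0. None of 12 sperm markers was detected. Of 20 markers of later lineages, Pax6 alone was detected, at 4.58 FPKM, and of 1097 olfactory receptor genes 1 was, Olfr837 at 1.415 FPKM. The markers fixed for the 8-cell embryo, Pou5f1, Nanog, Tfap2c, Tead4, Klf17, Dppa3 and Cdh1, were all detected, whereas Ooep, also on that list, averaged 0.753 FPKM.

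Spread between the 4 pools was small for most genes. Over the 4839 genes with a mean of 10 FPKM or more, the SD of log2(FPKM + 1) had a median of 0.19 and quartiles of 0.12 and 0.30, and the median coefficient of variation was 13.8%. The SD was under 0.1 for 770 genes and above 0.5 for 385. By level, its median was 0.29 for the 2676 genes between 1 and 3 FPKM, 0.23 for the 2083 between 10 and 30 FPKM, and 0.17 for the 335 between 300 and 1000 FPKM. The steadiest gene was Mrfap1, at 201 and 199 FPKM in A1 and A2, and 199 and 202 FPKM in B1 and B2. Next came Gm10053, Yipf5, Ing1, Cct2, Rif1, Gm6061, Ppp4r2, Pcbp2 and Gtpbp4. Cct2, a subunit of the chaperonin that folds actin and tubulin, averaged 193 ± 1.79 FPKM, and Rif1, which controls the timing of replication, 71.2 ± 0.671 FPKM (SD, n = 4). These genes had the lowest of 4839 SDs from 4 values each, so their SDs are partly low by selection. Of the 99 genes with an SD above 1, 62 were listed at 0 in some library. A value of 0 at a mean of 10 FPKM or more always gives an SD above 1, so these 62 are all the genes of that kind. Among the 10 largest SDs stood Gm26376, Gm26269, Gm25819 and Gm14039, all described above.

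**Figure D4:**
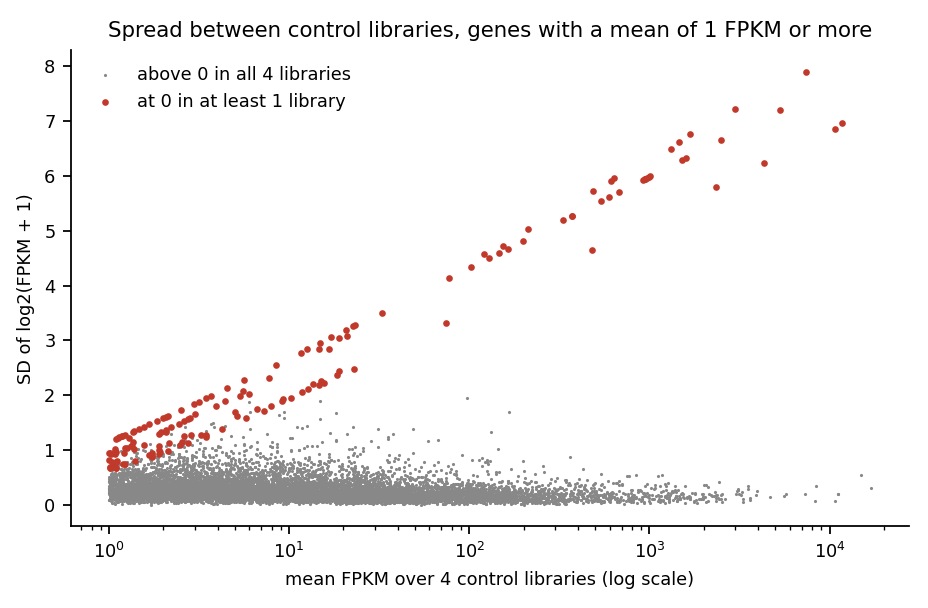
SD of log2(FPKM + 1) over the 4 control libraries against mean FPKM (logarithmic horizontal axis) for genes with a mean of 1 FPKM or more, with genes above 0 in all 4 libraries in grey and genes at 0 in at least 1 library in red. The SD was above 1 for 99 genes with a mean of 10 FPKM or more, and 62 of them are red. A value of 0 at such a mean always gives an SD above 1.

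The control libraries also allow a comparison of the 2 maternal crosses, 2 pools against 2. Libraries were closer within a cross than between crosses: Pearson's r of log2(FPKM + 1) over 10261 genes was 0.960 for A1 with A2 and 0.958 for B1 with B2, against 0.938 to 0.944 for pairs from different crosses. This is a correlation across genes, which are not independent replicates. In a limma fit over 10468 genes, 229 genes, 2.19% of those tested, had an adjusted p under 0.05 (Benjamini-Hochberg). Of these, 75 (0.716%) were higher in cross A and 154 (1.47%) higher in cross B, and 2390 genes had an unadjusted p under 0.05. Both A libraries lay above both B libraries for 2449 genes (23.4%), and both B above both A for 3292 (31.4%). The count rested on each library: it was 32 without A1, 17 without A2, 9 without B1 and 3 without B2. The balance of directions turned with the library left out: without A1 4 genes were higher in cross A and 28 in cross B, without A2 5 and 12, without B1 8 and 1, and without B2 3 and 0. After scaling to equal quantiles 285 genes passed, 125 higher in cross A and 160 higher in cross B. Collection, injection or library batches that followed the cross cannot be told apart from it.

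**Figure D5:**
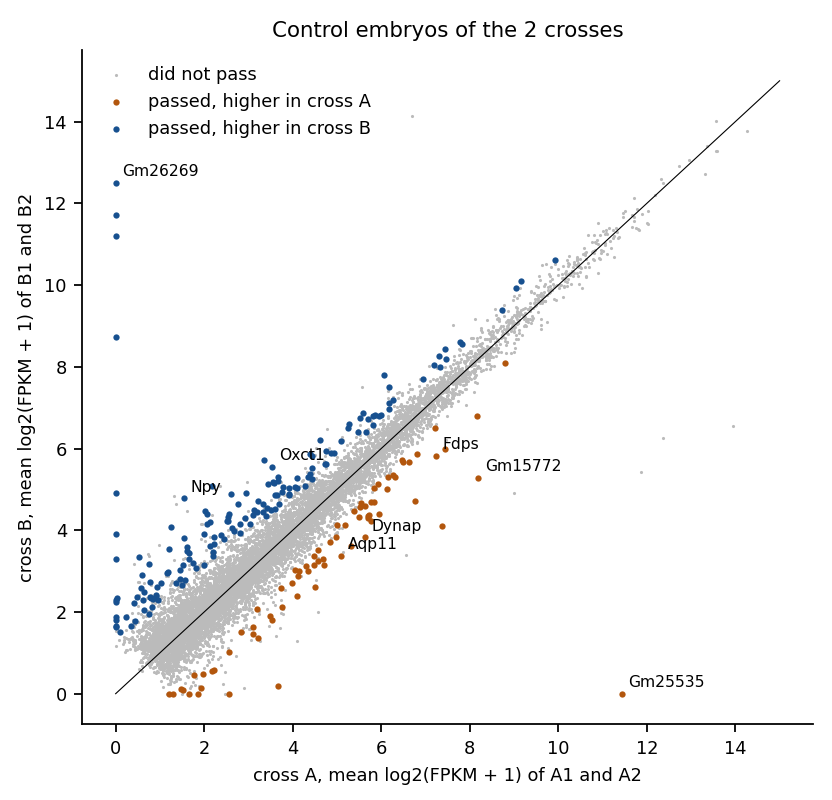
Mean log2(FPKM + 1) of A1 and A2 (horizontal axis) against that of B1 and B2 (vertical axis) for 10468 genes, with the 75 genes that passed and were higher in cross A in orange, the 154 that passed and were higher in cross B in blue, others in grey and the line of equality in black. Genes on an axis were listed at 0 in both libraries of the other cross.

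Genes higher in cross A included several ribosomal protein copies. Gm15772, which matched Rpl26 at 99.2% identity, had 340 and 250.6 FPKM in A1 and A2, and 35.2 and 41.2 FPKM in B1 and B2 (log2 difference 2.90 ± 0.18, SE, limma adjusted p = 0.00482). Rps3a3, a match of Rps3a at 99%, had 248 and 109.5 FPKM in A1 and A2, and 14.8 and 17.7 FPKM in B1 and B2, and Rps2-ps10, a match of Rps2 at 98.8%, had 98.9 and 119 FPKM against 24.8 and 25.5 FPKM. The parents Rpl26 and Rps2 averaged 1349 and 710 FPKM, and how reads were divided between copy and parent is not stated in the labels. Among named genes, Dynap, a membrane protein gene, had 54.5 and 43.0 FPKM in cross A, and 12.5 and 13.9 FPKM in cross B, a log2 difference of 1.80 ± 0.17 (SE, limma adjusted p = 0.0171). Hesx1, a homeobox repressor, had 8.06 and 8.64 FPKM in cross A, and 2.20 and 1.07 FPKM in cross B (1.86 ± 0.26, limma adjusted p = 0.0382). Its limma adjusted p was 0.0531 with a pseudocount of 0.1. The remaining genes of the 10 with the largest difference were Gm25535, Gm15571, 1700080O16Rik, Bhlhb9 and Gm29440, of which Gm25535 was listed at 0 in both B libraries.

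Genes lower in cross A were headed by Gm26269, Gm23638, Gm27743, Snora21, Gm12309, Gm17449 and Gm12469, all listed at 0 in both A libraries, so no fold is given. In the common units described above, Gm26269 stood at 3 units in B1 and 4 in B2. Gm23638 stood at 2 units in each, and Gm27743 at 1 and 2. The calls of these genes thus rest on a few such units. Of named protein-coding genes, Npy (chromosome 6, 49822710 to 49829507), which encodes neuropeptide Y, had 2.32 and 1.55 FPKM in A1 and A2, and 35.0 and 20.1 FPKM in B1 and B2. Its log2 difference was -3.24 ± 0.30 (SE, limma adjusted p = 0.0171). Stfa2l1, a cystatin-like protease inhibitor gene, had 2.86 and 4.25 FPKM in cross A, and 32.3 and 33.0 FPKM in cross B, a log2 difference of -2.90 ± 0.20 (SE, limma adjusted p = 0.00663). Gm13875 completed the 10. Outside the 10, and picked after their values were seen, Anxa3, an annexin, had 5.17 and 5.07 FPKM in cross A, and 28.7 and 28.5 FPKM in cross B, and Oxct1, an enzyme of ketone body use, had 10.4 and 10.8 FPKM in cross A, and 44.4 and 47.8 FPKM in cross B. The limma adjusted p was 0.00601 for each, and the libraries of a cross lay close together.

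Several gene lists held members that passed, and their counts stand beside the 2.19% of all genes tested. Of 18 tested sterol genes 2 were higher in cross A: Fdps, farnesyl diphosphate synthase, with 137 and 162 FPKM in A1 and A2, and 59.0 and 52.6 FPKM in B1 and B2 (log2 difference 1.41 ± 0.14, SE, limma adjusted p = 0.0181), and Ebp, a sterol isomerase. Pmvk of the same list was lower in cross A. Of 27 tested pluripotency genes, Klf17 was higher in cross A, at 76.5 and 65.0 FPKM against 40.3 and 36.4 FPKM in cross B, and Utf1 and Gdf3 were lower. Utf1, a chromatin protein of pluripotent cells, had 22.5 and 17.8 FPKM in cross A, and 57.0 and 57.0 FPKM in cross B. Of 19 tested p53 targets, Eda2r, Perp and Ccng1 were lower in cross A. The median difference of that list was -0.63 on the log2 scale, against -0.04 over all genes tested. Medians are given here for only some lists. Lists with 0 members passing also had sizeable medians, among them 0.57 for 17 tested oocyte genes and 0.45 for 7 tested genes of the subcortical maternal complex. Of 24 tested 2-cell genes, Arg2 and Zfp352 were lower in cross A, with a median of -0.68 for the list (limma adjusted p of Zfp352 0.0589 with a pseudocount of 0.1), and of 40 tested core histone genes 3 were lower, Hist1h3g, Hist1h4i and Hist1h2ak, with a median of -0.64. Of 18 tested trophectoderm genes Id2 passed, lower in cross A, and Krt8, a keratin of the trophectoderm, had 7.45 and 6.58 FPKM in cross A, and 29.5 and 15.3 FPKM in cross B (limma adjusted p = 0.0677). Of the 13 mitochondrially encoded protein genes 0 passed the adjusted threshold in limma. An unadjusted p under 0.05 was found for 6, against 2390 of all 10468 genes tested. The 13 genes share 1 genome, so their counts are not those of independent members. Both A libraries lay above both B libraries for 9 of the 13, against 23.4% of all genes, and the reverse held for 1. The median log2 difference of the list was 0.30, and mt-Cytb had a log2 difference of 0.48 ± 0.18 (SE, limma adjusted p = 0.181). In artificial data fitted the same way, 0 of 50 genes changed by 0.5 passed. Most genes there held no difference and all varied independently. Those data therefore cannot decide whether a difference of this size would be called between the crosses.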

How the data were processed

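The deposited table gives FPKM per gene and library, scaled by the authors to transcript length and library size. The submitters' processing notes list CASAVA, Trim Galore, STAR, Cufflinks and mm10, without versions or roles; the annotation is not stated there. Per the labels' protocols, polyadenylated RNA was amplified by Smart-seq2.

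Of 43496 lines, 59 repeated an identifier and were summed, and 27 symbols turned into dates were restored. Biotypes, lengths and spliced sequences came from GENCODE vM1 (32973 genes), coordinates and promoters from RefSeq on GRCm38.p6. Fragment counts were not used here, so counting error is unknown and precision is read from the spread over libraries.

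For the crosses, genes with at least 1 FPKM in 2 libraries were tested on log2(FPKM + 1), computed here from the deposited FPKM, with limma 3.58.1 in R 4.3.3 (trended variance, two-sided, Benjamini-Hochberg). The fit was checked on artificial data with known answers. It recovered 0 of 50 genes changed by 0.5 on the log2 scale and 14 of 50 changed by 1. At changes of 2 and 3 it recovered 40 and 47 of 50, with 4 false calls among 10468 genes. Small differences were therefore mostly missed in the artificial data, where most genes held no difference, and may be missed between the crosses as well. Fold changes on this scale understate those of low genes. Of the 30 highest means those placed in the text were named, with up to 5 members by level per list and members near 0, the 20 most abundant transcription factors, 10 genes each by lowest and highest SD, and 10 passing genes per direction with a mean of 5 FPKM or more in a cross. Other members were named after their values were seen. Some named-gene results are not reported here. A list symbol with several identifiers kept the highest mean. The libraries and lists were chosen with earlier results of these data known. The labels do not say whether replicate numbers pair the pools. Deviations of A1 and B1 correlated at r = 0.0397 across genes. With 4 libraries this cannot decide whether pools of the same number shared a collection or injection. Alternatives were other pseudocounts, filters, scalings, a replicate block and leaving out each library.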

Additional observations from a re-analysis of the deposited data

Results flagged for a closer look

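For 133 sets of 4 values, the library farthest from the others was compared with a 95% critical value for outliers, which chance passes in about 1 of 20 sets. In 7 sets a library stood apart, about as many as chance would pass, and 4 of these were A2. Some sets share genes, so they are not independent. Mitochondrially encoded genes held 12.1% of the FPKM in A2, against a median of 9.37% over the 4 libraries. The Y-linked genes summed to 54.0 FPKM in A2, against a median of 32.0 FPKM. Rpl41 had 5834 FPKM in A2, with a median of 7719 FPKM, and Pou5f1 30.02 FPKM in A2, with a median of 39.0 FPKM. Genes at 1 FPKM or more numbered 10504 in B1, with a median of 10077. Id3 had 342 FPKM in B2, with a median of 234 FPKM. Gm25819 had 21342 FPKM in A1 and was listed at 0 in the other libraries.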

How the results depend on the processing

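With a threshold of 5 FPKM in place of 1, 5611 genes were detected in all 4 libraries, and 10340 with 0.5 FPKM. Without mitochondrially encoded genes, the 10 most abundant genes held 10.2% of FPKM and the 100 most abundant 34.7%, as means over libraries in place of 13.2% and 38.8%, and the ribosomal share was 15.1% in place of 13.6%. It was 14.8% over genes above 0 in all 4 libraries, a choice made after seeing the data. Without genes whose longest transcript is under 300 bases, which takes out mt-Atp8 and mt-Nd4l, the mitochondrial share was 8.34% in place of 9.94%. Leaving out 1 library at a time moved the median SD of log2(FPKM + 1) between 0.18 and 0.19, and kept 95 to 97 of the 100 highest means. The 100 highest by the lowest library shared 88 genes with them. The number of genes passing between crosses was 135 with a pseudocount of 0.1, 103 without a variance trend, 3 without a filter on low values, where 22018 genes were tested, and 462 over genes above 0 in all 4 libraries, also chosen after seeing the data. Leaving out 1 library gave from 3 to 32. With the replicate number as a block, the paired analysis, 78 genes passed, 73 of them among the 229. Whether the numbers pair the pools is not stated in the labels. No sign changed among 28 genes looked up in the cross comparison under these settings. These genes were chosen because they passed in the same 4 libraries, so an unchanged sign is no check of them. The causes were not tested. Of these genes, 11 of 26 tested lost their call without A1, 14 of 26 without A2, 18 of 21 without B1 and 20 of 21 without B2. With a cross reduced to 1 pool, that pool is assumed to vary like the others.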
